A study of Mus musculus with 11 samples.

Results

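The carbonic anhydrases Car1, Car2, Car4 and Car13 and the aquaporins Aqp1, Aqp3 and Aqp9 were followed across sorted mouse bone marrow cells on bead arrays. All probes annotated to these 7 genes were taken, 11 of the 45281 probes on the array, and the genes were 7 of 19057 with a named probe. They were chosen by measured values, the normalized signals of the CD31- B220- arrays against the other groups: Car1 and Aqp1 were among the largest excesses of 1 of the sorted fractions, the CD31- B220- cells. For these 7 genes every difference that involves that fraction is therefore given as a description without a test, while their differences among the other groups were tested. Genes outside the 7 were tested in all comparisons. No p-value is printed for Car11 and Rhd, which passed the detection filter through their bright group alone. Whether a gene was present was read from the detection p-value of its probe, taken as 1 minus the deposited score.

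The cells came from C57BL/6 mice, from the endosteal region of the marrow, which lines the bone, and their age and sex are not given in the sources used here. One group held haemopoietic stem cells (HSC), sorted as LSK CD150+ CD48- (2 arrays), where LSK stands for cells without lineage markers that carry Sca-1 and Kit. The other 3 groups were fractions that had taken up or bound a fluorescein-tagged reagent named AGE and that the labels call scavenger endothelial cells: CD31+ B220+, CD31+ B220- and CD31- B220- (3 arrays each). For the CD31- B220- samples the deposited source name starts with HSC, against their titles, and the titles were followed. Some RNA samples were pooled before labelling, and the numbered replicates are not stated to be separate animals, so the p-values measure the spread between these samples, which may be technical. In such sorted bulk RNA, fewer cells of a type and less RNA per cell cannot be told apart.

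Carbonic anhydrases interconvert carbon dioxide and bicarbonate. Car1 and Car2 are the cytosolic enzymes of red cells, where they let bicarbonate leave through the anion exchanger Slc4a1, and Car2 also supplies the protons that osteoclasts secrete onto bone. Aquaporins are membrane channels: Aqp1 passes water and is known from red cells and vessel lining, while Aqp3 and Aqp9 also pass glycerol, and in mouse Aqp9 is the glycerol channel of red cells.

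The labelled cell type was checked against marker genes before the members were described. Of 15 endothelial markers, Lyve1 and Clec14a were detected on no array, and Cdh5, Emcn, Robo4, Esam, Stab2, Tek and Tie1 on no CD31- B220- array, whereas Stab1, a scavenger receptor, was detected on all 11. Flt1, Eng and Plvap were detected on 3 of 3 CD31- B220- arrays and Kdr on 1. By array, 4 to 6 of the 15 were detected in CD31- B220- cells, 11 to 12 in CD31+ B220-, 3 to 4 in CD31+ B220+ and 9 in HSC. The summed signal of the endothelial list ranged from 13112 to 13692 in HSC, from 1769 to 2058 in CD31+ B220+, from 2719 to 3565 in CD31+ B220- and from 2477 to 2703 in CD31- B220- cells. Stab1 was the brightest gene of the list, at a mean log2 signal of 10.07 over the 11 arrays against 7.73 for Pecam1, the next. Of 13 tested endothelial markers, 5 were higher and 6 lower in CD31+ B220- cells relative to HSC (median log2 difference 0.57). In CD31+ B220+ cells 1 was higher and 6 lower (-0.54), and in CD31- B220- cells 3 and 7 (-2.02). Of all tested genes 41.3%, 44.2% and 49.2% passed an adjusted p of 0.05 in these comparisons. With arrays scaled to a common median, 2 of the 13 markers were higher and 7 lower in CD31+ B220- cells (-0.84). For CD31+ B220+ cells the counts were then 1 and 8 (-2.01), and for CD31- B220- cells 2 and 8 (-3.31). Among 11391 genes tested with that scaling, 7398, 7666 and 7025 were lower in the same order of groups. The CD31 gene, Pecam1, had mean log2 signals of 9.80 ± 0.13 (SD, n = 3) for CD31+ B220+ and 8.26 ± 0.36 (n = 3) for CD31+ B220- cells, and 1 of 3 CD31- B220- arrays detected it. The 17 erythroid markers with a probe summed to 96180 to 103273 in CD31- B220- cells, against 60052 to 67127 in HSC, 24432 to 44865 in CD31+ B220+ and 24337 to 49775 in CD31+ B220- cells, and Epb42 was detected on no array. The HSC arrays were brighter before normalization, with a 75th percentile of probe signals of 376.8 and 450.5 against 145.9 to 211.6 on the others, so array brightness and cell type cannot be told apart in comparisons with HSC.

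Car1 was highest in the CD31- B220- cells and was measured by 1 probe, ILMN_1236588. After background correction and quantile normalization its log2 signal was 7.73 and 7.26 on the HSC arrays, 4.65, 7.30 and 7.14 on the CD31+ B220+ arrays, 8.88, 9.47 and 9.07 on the CD31+ B220- arrays and 13.74, 13.52 and 13.10 on the CD31- B220- arrays. The CD31- B220- arrays lay above all others, the CD31+ B220- arrays came next and also overlapped with no other group, and CD31+ B220+ and HSC overlapped at the lower end. CD31+ B220+ replicate 1 was the only array of 11 on which Car1 was not detected. The group means were 13.46 ± 0.33 (SD, n = 3) for CD31- B220-, 9.14 ± 0.30 (n = 3) for CD31+ B220-, 7.49 ± 0.34 (n = 2) for HSC and 6.37 ± 1.48 (n = 3) for CD31+ B220+ cells. As a description, the CD31- B220- mean was 62.3-fold that of HSC, 19.9-fold that of CD31+ B220- and 136-fold that of CD31+ B220+ cells. Without CD31+ B220+ replicate 1, the log2 difference of Car1 from that fraction was 6.24 in place of 7.09. Before any correction the same probe read 8445.1 to 14252.4 in CD31- B220- cells and at most 654.8 elsewhere.

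Car2, the second cytosolic red cell enzyme, was high in both CD31- B220- cells and HSC. Its brighter probe, ILMN_2606746, gave log2 signals of 11.57 and 11.29 in HSC, 5.98, 6.73 and 7.44 in CD31+ B220+, 7.88, 8.36 and 8.27 in CD31+ B220- and 13.11, 12.71 and 12.46 in CD31- B220- cells. No pair of groups overlapped, and the order ran from CD31- B220- through HSC and CD31+ B220- to CD31+ B220+. The means were 12.76 ± 0.33 (n = 3), 11.43 ± 0.20 (n = 2), 8.17 ± 0.25 (n = 3) and 6.72 ± 0.73 (n = 3) in that order. The CD31- B220- mean was thus 2.52-fold that of HSC, 24.1-fold that of CD31+ B220- and 66.1-fold that of CD31+ B220+ cells. Uncorrected signals of this probe overlapped between these cells and HSC, whose arrays were brighter. They were 5994.6 and 7034.7 in HSC and 8860.5, 4701.1 and 5973.4 in CD31- B220- cells. The log2 difference from HSC was 0.70 instead of 1.33 when arrays were scaled to a common median.

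The second Car2 probe, ILMN_2603504, gave another picture of HSC. It was detected on the 3 CD31- B220- arrays, at log2 signals of 7.95, 9.07 and 8.37 (mean 8.46 ± 0.56, SD, n = 3), and on no other array, HSC included. Its CD31- B220- mean was at least 9.15-fold that of HSC, at least 8.37-fold that of CD31+ B220- and at least 7.70-fold that of CD31+ B220+ cells. In such bounds each dim array takes the larger of its own value and the lowest signal among probes detected on that array. The Car2 probes therefore disagreed on the HSC level, with a root mean square distance of 1.52 between their log2 profiles after each was centred on its own mean.

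Car13, a further cytosolic carbonic anhydrase, ran the other way. Its probe, ILMN_1249727, was detected on all 11 arrays, with log2 signals of 7.09 and 6.74 in HSC, 8.13, 7.61 and 7.54 in CD31+ B220+, 8.02, 7.13 and 7.76 in CD31+ B220- and 6.36, 6.28 and 6.19 in CD31- B220- cells. The CD31- B220- arrays were the lowest, the CD31+ fractions overlapped at the top and HSC lay between. The means were 7.76 ± 0.33 (n = 3) for CD31+ B220+, 7.63 ± 0.46 (n = 3) for CD31+ B220-, 6.91 ± 0.24 (n = 2) for HSC and 6.27 ± 0.09 (n = 3) for CD31- B220- cells. Car13 in CD31- B220- cells was 1.56-fold lower than in HSC, 2.57-fold lower than in CD31+ B220- and 2.80-fold lower than in CD31+ B220+ cells. Car4, which is anchored on the outer face of the membrane, was detected on 1 array, CD31- B220- replicate 3, and its log2 signal stayed between 4.49 and 5.47. In the RefSeq gene order Car13, Car1, Car3 and Car2 follow each other on chromosome 3 with 0 protein-coding genes between neighbours, so Car13, lowest in CD31- B220- cells, and Car1, highest there, are direct neighbours. Car3, which lies between Car1 and Car2, was detected on 0 of 11 arrays.

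Aqp1 had the same leading group as Car1, and 3 probes agreed on it. The brightest, ILMN_2756486, gave log2 signals of 10.33 and 10.59 in HSC, 7.07, 8.16 and 8.37 in CD31+ B220+, 9.59, 9.61 and 9.71 in CD31+ B220- and 14.05, 13.84 and 13.71 in CD31- B220- cells. No pair of groups overlapped, with CD31- B220- at the top, then HSC, then CD31+ B220- and last CD31+ B220+. The means were 13.87 ± 0.17 (n = 3), 10.46 ± 0.18 (n = 2), 9.64 ± 0.06 (n = 3) and 7.87 ± 0.69 (n = 3) in that order. On the log2 scale ILMN_2980661 had means of 13.55, 9.17, 8.58 and 6.94 and ILMN_2980663 of 12.61, 7.62, 7.13 and 5.99, the last with CD31+ B220+ replicate 1 not detected. All 3 probes thus kept the order of the groups, although the size of the difference depended on the probe. The CD31- B220- excess over HSC was 10.6-fold with ILMN_2756486, 20.7-fold with ILMN_2980661 and 31.8-fold with ILMN_2980663. Over CD31+ B220- cells the excess was 18.8-fold, 31.3-fold and 44.7-fold, and over CD31+ B220+ cells 64.0-fold, 97.4-fold and 98.8-fold, in the same order of probes. The centred profiles of the Aqp1 probes lay 0.35 to 0.62 apart in root mean square log2 distance.

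The Aqp1 promoter is shown because Aqp1 was the member with the most probes in agreement. RefSeq sequence was held for Aqp1, Aqp3, Aqp9 and Car4, covering 250 bases before to 50 bases after the start, in the build GRCm38.p6. Each was searched on both strands for the erythroid-type GATA letters AGATAA or AGATAG as well as TGATAA or TGATAG, and for CACCC, the letters of Klf1-type sites, and no match overlapped another. A GATA match was in 29.8% and a CACCC match in 57.5% of all 32851 promoter windows of 300 bases. The window of Aqp3, a gene detected on 0 of 11 arrays, held 4 CACCC and 0 GATA matches. That of Car4, detected on 1 array, held 1 CACCC and 0 GATA matches. The Aqp1 window, chr6:55336049-55336348 on the plus strand, held 3 CACCC matches and 0 GATA matches, and capitals mark the matches, GGGTG being CACCC on the other strand.
Aqp1 promoter: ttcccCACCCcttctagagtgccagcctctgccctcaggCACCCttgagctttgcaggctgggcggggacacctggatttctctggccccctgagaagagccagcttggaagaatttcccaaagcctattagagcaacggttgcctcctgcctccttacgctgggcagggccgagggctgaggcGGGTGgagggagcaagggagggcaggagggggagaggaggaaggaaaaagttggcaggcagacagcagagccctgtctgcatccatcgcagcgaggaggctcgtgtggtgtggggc
These letters are a description of the window, not a site at which a factor was measured.

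Aqp9 separated the groups differently from Aqp1, because HSC carried as much of it as the CD31- B220- cells or more. Its probe ILMN_1214634 gave log2 signals of 10.36 and 10.25 in HSC, 5.04, 4.59 and 4.46 in CD31+ B220+, 7.63, 7.61 and 8.21 in CD31+ B220- and 9.93, 9.96 and 9.36 in CD31- B220- cells. HSC was highest, CD31- B220- followed without overlap, CD31+ B220- was lower, and on the CD31+ B220+ arrays Aqp9 was not detected. The means were 10.30 ± 0.08 (n = 2) for HSC, 9.75 ± 0.34 (n = 3) for CD31- B220-, 7.82 ± 0.34 (n = 3) for CD31+ B220- and 4.70 ± 0.30 (n = 3) for CD31+ B220+ cells. Relative to CD31- B220- cells, HSC was 1.47-fold higher, CD31+ B220- cells 3.82-fold lower and CD31+ B220+ cells at least 18.8-fold lower. The other Aqp9 probe, ILMN_2443759, was detected on 0 of 11 arrays, with log2 signals from 4.45 to 5.63. Aqp3, the other glycerol-passing member, was also detected on 0 arrays, at 4.44 to 4.87.

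RefSeq gave 2 start sites for Aqp9, shown because only 1 of them held matches. The window chr9:71163240-71163539 on the minus strand held 0 GATA and 0 CACCC matches. The window chr9:71162584-71162883 on the minus strand held 3 GATA matches, in capitals, of which TTATCA is TGATAA on the other strand.
Aqp9 promoter, first start: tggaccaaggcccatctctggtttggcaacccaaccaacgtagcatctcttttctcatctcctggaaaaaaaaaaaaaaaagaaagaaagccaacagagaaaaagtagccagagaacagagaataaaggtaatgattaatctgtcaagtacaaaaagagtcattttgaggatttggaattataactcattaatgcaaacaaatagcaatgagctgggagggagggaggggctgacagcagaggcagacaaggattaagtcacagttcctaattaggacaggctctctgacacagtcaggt
Aqp9 promoter, second start: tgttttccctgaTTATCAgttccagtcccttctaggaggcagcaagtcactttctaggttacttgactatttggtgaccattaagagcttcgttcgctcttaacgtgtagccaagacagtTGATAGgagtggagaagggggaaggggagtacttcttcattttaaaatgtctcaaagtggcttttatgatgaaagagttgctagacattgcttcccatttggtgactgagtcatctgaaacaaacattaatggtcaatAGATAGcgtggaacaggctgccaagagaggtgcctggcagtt
Which start the marrow cells used was not measured by these arrays.

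**Figure D1:**
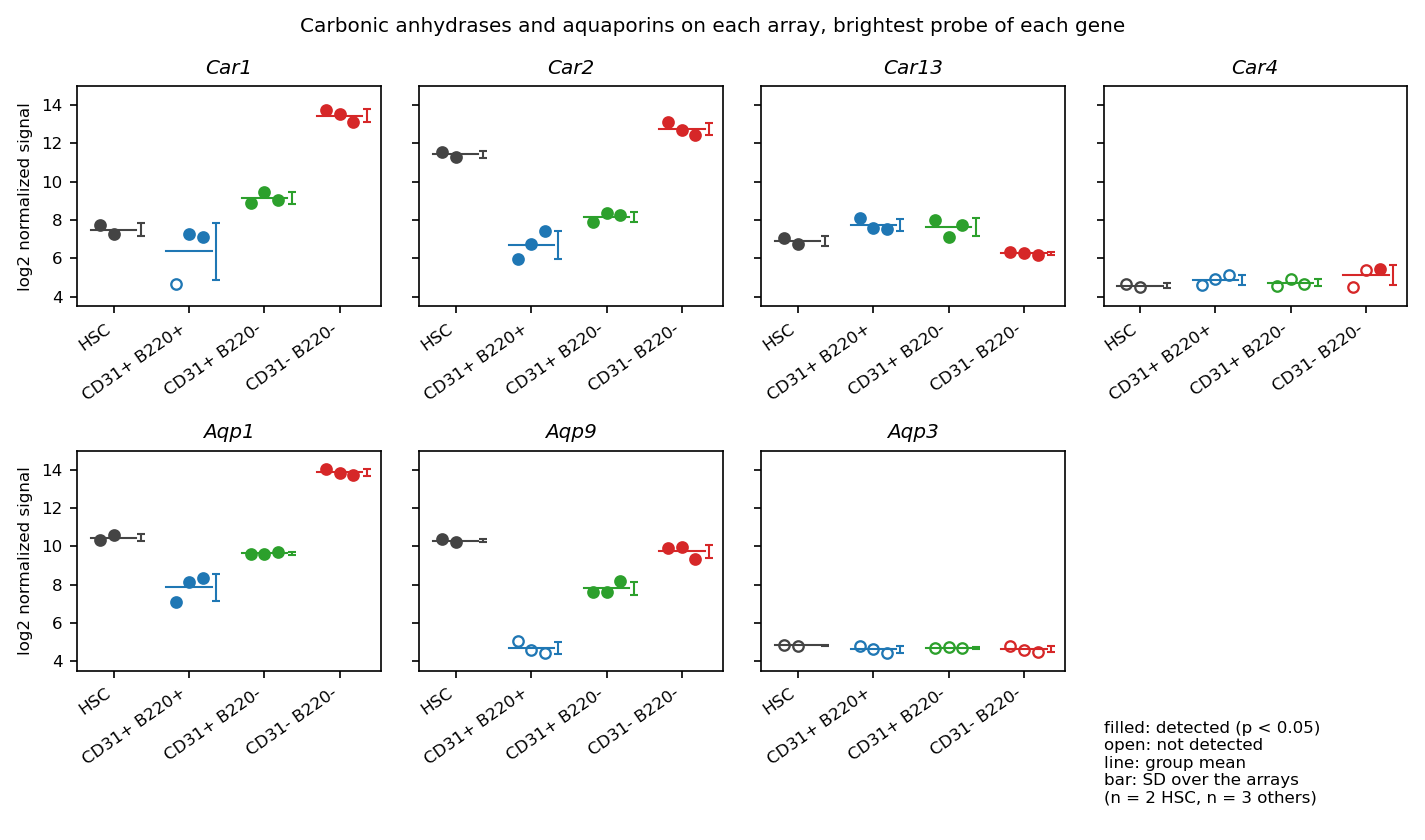
Log2 normalized signal (y axis) of the brightest probe of each gene on each array, by sorted group (x axis); filled points are detected (detection p under 0.05), open points are not, lines are group means and bars SD (n = 2 for HSC, n = 3 for the others). Car1 and Aqp1 peak in CD31- B220- cells, Aqp9 is highest in HSC, Car13 is lowest in CD31- B220- cells, and Car4 and Aqp3 are open on nearly every or every array.

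**Figure D2:**
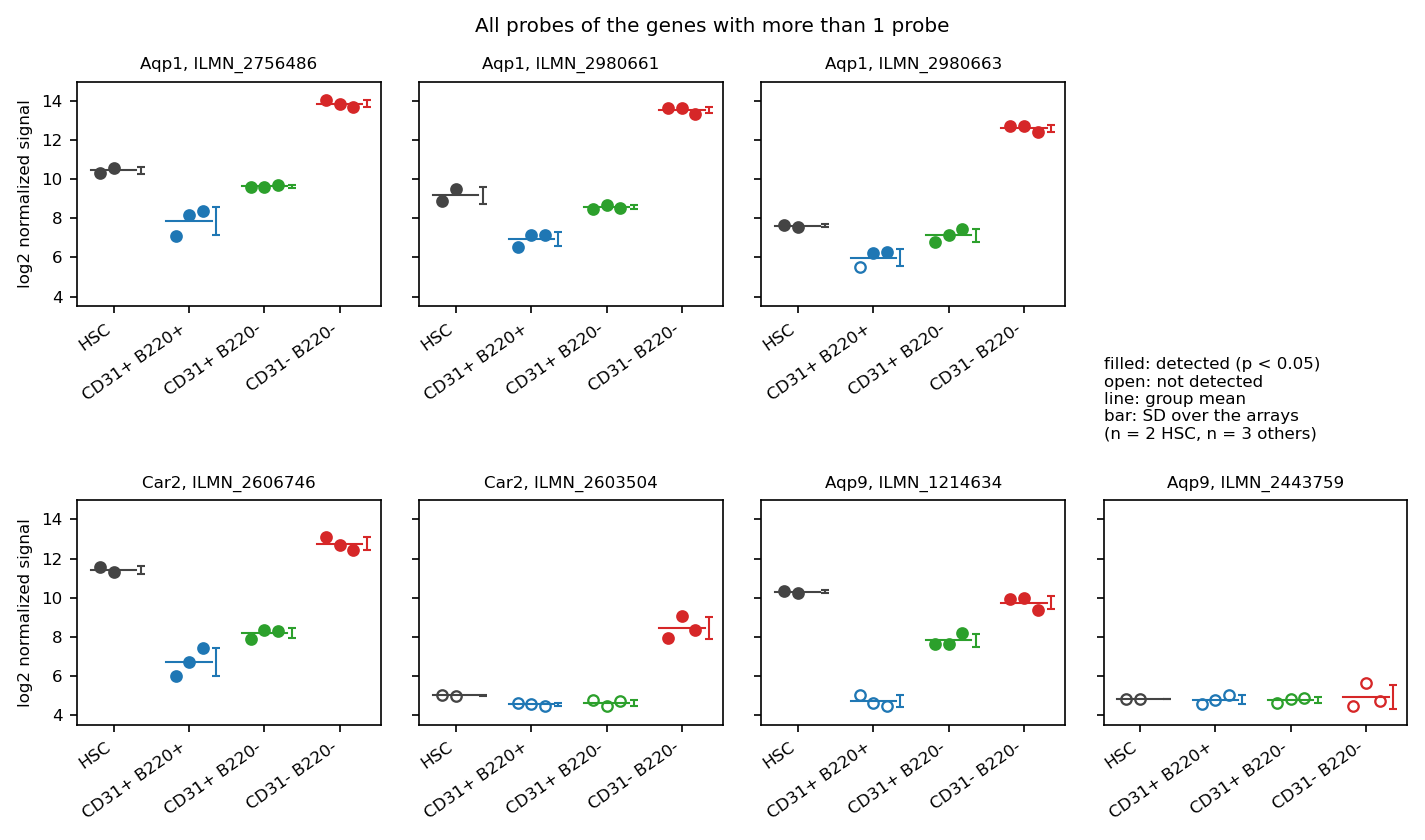
Log2 normalized signal (y axis) of all probes of Aqp1, Car2 and Aqp9, by sorted group (x axis), with filled points detected, open points not detected, lines for group means and bars for SD (n = 2 or 3). The 3 Aqp1 probes share 1 order of groups, whereas the second Car2 probe is detected in CD31- B220- cells alone and the second Aqp9 probe on no array.

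The CD31+ fractions were set against HSC and against each other, which asks how these genes differ between stem cells and cells with or without B220, and these 3 comparisons include no CD31- B220- array. The arrays they compare were the other side of the excess by which the genes were chosen. A single limma model with 1 mean per group was fitted to all 11 arrays, and p-values were adjusted by Benjamini-Hochberg over the 11381 genes detected on at least 2 arrays. Car1, Car2, Car13, Aqp1 and Aqp9 entered the test; Car4 and Aqp3 did not pass the detection filter. Both comparisons with HSC rest on 1 pair of HSC arrays, so they are not independent. The median difference of all tested genes was close to 0 in each, at -0.03 for CD31+ B220+ minus HSC, -0.06 for CD31+ B220- minus HSC and 0.01 between the CD31+ fractions.

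In CD31+ B220+ cells Car2, Aqp1 and Aqp9 fell relative to HSC and Car13 rose, so that 4 of the 5 tested members passed an adjusted p of 0.05, where 44.2% of all tested genes did (18.6% higher, 25.6% lower). Car2 was lower by 4.71 on the log2 scale (difference -4.71, SE 0.36, 26.3-fold lower; limma adjusted p = 1.14e-06). Aqp1 differed by -2.59 (SE 0.32, 6.03-fold lower; limma adjusted p = 5.04e-05), and all 3 of its probes passed when tested singly. Aqp9 was at least 27.6-fold lower (limma adjusted p = 2.71e-08). In each of these 3 genes every CD31+ B220+ array lay below every HSC array. Car1 differed by -1.13 (95% confidence interval -2.50 to 0.24; limma adjusted p = 0.165), and by -0.27 without CD31+ B220+ replicate 1. Car13 was 0.84 higher (SE 0.28; limma adjusted p = 0.0268), but the call was lost without HSC replicate 1 (adjusted p = 0.0548), HSC replicate 2 (0.184) or CD31+ B220+ replicate 1 (0.0845). With median scaling Car13 turned to -0.78 (adjusted p = 0.0147), in a setting that moved the median of all genes to -1.21.

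Between CD31+ B220- cells and HSC, Car2 and Aqp9 fell, 2 of 5 tested members against 41.3% of all tested genes (17.6% higher, 23.7% lower). Car2 differed by -3.26 (SE 0.36, 9.56-fold lower; limma adjusted p = 3.3e-05) and Aqp9 by -2.49 (SE 0.27, 5.61-fold lower; limma adjusted p = 2.67e-05). The other 3 were close to the threshold: Car1 at 1.65 (95% interval 0.28 to 3.01; limma adjusted p = 0.0533), Aqp1 at -0.82 (-1.53 to -0.12; 0.0591) and Car13 at 0.72 (0.11 to 1.32; 0.0563). For Car1, every CD31+ B220- array lay above both HSC arrays. When CD31+ B220+ replicate 1, an array outside this comparison, was left out, all 5 members passed, with an adjusted p of 0.000574 for Car1, 0.00541 for Aqp1 and 0.0438 for Car13. Car1 also passed without CD31+ B220+ replicate 2 (0.038) or replicate 3 (0.0475), Aqp1 without replicate 3 (0.0412) and Car13 without CD31+ B220- replicate 2 (0.0116). Median scaling, which moved the median of all genes to -1.12, turned Car13 to -0.74 (adjusted p = 0.02), brought Car1 to 0.19 (0.688) and put Aqp1 at -2.05 (9.01e-05).

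Within the CD31+ cells, the B220+ fraction had less of 4 of the 5 tested members, where 35.3% of all tested genes passed in either direction, 16.8% higher and 18.5% lower. Car1 differed by -2.78 (SE 0.56, 6.85-fold lower; limma adjusted p = 0.00241), and by -1.92 without CD31+ B220+ replicate 1 (adjusted p = 0.000281). Car2 differed by -1.46 (SE 0.32, 2.75-fold lower; limma adjusted p = 0.00447) and Aqp1 by -1.77 (SE 0.29, 3.41-fold lower; limma adjusted p = 0.000565). Aqp9 was at least 4.92-fold lower, not being detected on any B220+ array (limma adjusted p = 1.87e-06). For these 4 genes no B220+ array reached the lowest B220- array. Car13 differed by 0.13 (95% interval -0.41 to 0.67; limma adjusted p = 0.746).

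**Figure D3:**
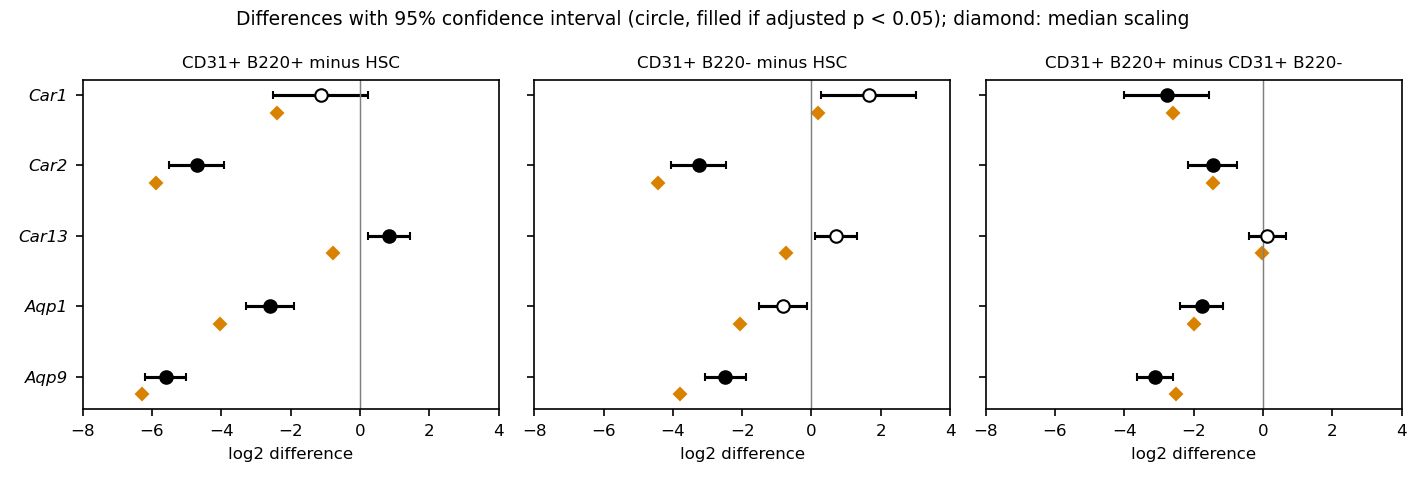
Log2 differences (x axis) of the 5 tested genes (y axis) in the 3 comparisons that leave out the CD31- B220- arrays, with circles for the limma estimate, filled where the adjusted p is under 0.05, bars for the 95% confidence interval and diamonds for median scaling. Car2 and Aqp9 lie below 0 in all 3 panels under both scalings, and the Car13 diamonds fall on the other side of 0 from its circles in both comparisons with HSC.

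Markers of other cell types were set beside these differences, and their part in them was not tested. In CD31+ B220- cells relative to HSC, where the Car1 difference was 1.65, 0 of 16 tested erythroid markers were higher and 8 were lower (median log2 difference -0.87). Of all tested genes 17.6% were higher and 23.7% lower. With median scaling 13 of the 16 were lower (-1.64), as were 7398 of all 11391 genes tested with that scaling. In the same comparison 12 of 15 neutrophil, 10 of 12 monocyte and macrophage and 5 of 8 eosinophil, basophil and mast cell markers were higher. So were 8 of 10 B lineage markers. In CD31+ B220+ cells, where Car2, Aqp1 and Aqp9 fell relative to HSC, 10 of 16 erythroid markers were lower and all 10 tested B lineage markers were higher. Of all tested genes 25.6% were lower and 18.6% higher. With median scaling 14 of the 16 erythroid markers were lower, as were 7666 of all 11391 genes tested with that scaling. Relative to the CD31+ B220- fraction, 3 of 16 erythroid, 13 of 15 neutrophil and 12 of 12 monocyte and macrophage markers were lower in CD31+ B220+ cells. Of all tested genes 18.5% were lower there, so the erythroid count was near the share of all genes. The summed monocyte and macrophage signal was 780 to 1016 in CD31+ B220+, 26386 to 33151 in CD31+ B220-, 14808 to 24187 in CD31- B220- cells and 991 to 1186 in HSC. The neutrophil list summed to 1816 to 7602, 68511 to 76353, 25034 to 65295 and 8029 to 8391, in the same order of groups.

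In the CD31- B220- cells, at least a 2-fold excess over HSC was seen for Car1, Car2 and Aqp1, 3 of 5 members that passed the detection filter, where 14.6% of all tested genes had such an excess. Over CD31+ B220- cells it was seen for Car1, Car2, Aqp1 and Aqp9, 4 of 5 against 7.79% of all tested genes. The same 4 genes exceeded CD31+ B220+ cells, against 15.2% of all tested genes. These counts describe how the genes were chosen and nothing is read from them. The sizes depended on the processing: over 23 alternatives, arrays left out included, the log2 difference from HSC ranged from 5.06 to 6.24 for Car1, from 0.70 to 2.40 for Car2, from 2.79 to 4.26 for Aqp1, from -2.01 to -0.28 for Car13 and from -1.68 to -0.23 for Aqp9, with no change of sign. Median scaling gave the lowest of these values for each of the 5 genes. Against CD31+ B220+ cells the log2 difference ranged from 5.69 to 7.91 for Car1, from 4.90 to 6.57 for Car2, from 5.36 to 6.82 for Aqp1 and from 2.60 to 6.87 for Aqp9. Against CD31+ B220- cells it ranged from 4.03 to 4.87 for Car1, from 4.08 to 5.14 for Car2, from 4.03 to 4.89 for Aqp1 and from 1.04 to 2.13 for Aqp9. Car13 ranged from -1.84 to -0.75 against CD31+ B220+ and from -1.69 to -0.68 against CD31+ B220- cells. Erythroid markers ran beside them: 12 of 16 were higher than in HSC, 15 of 16 higher than in CD31+ B220- and 16 of 16 higher than in CD31+ B220+ cells. Rhd, which passed the detection filter through the CD31- B220- arrays alone, is among those counted in each comparison. Of all tested genes 49.2% passed an adjusted p of 0.05 against HSC (20.9% higher, 28.3% lower), 28.1% against CD31+ B220- (12.1% higher, 16% lower) and 44.8% against CD31+ B220+ cells (22.5% higher, 22.4% lower). Klf1, an erythroid transcription factor, had mean log2 signals of 12.23 in CD31- B220- cells, 7.61 in HSC, 6.26 in CD31+ B220- and 5.35 in CD31+ B220+ cells. The summed signal of the 14 stromal and osteoblast markers was 6508 to 9807 in CD31- B220- cells and 395 to 1967 elsewhere. The part of either list in the levels of the members was not tested.

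Car2 is also an osteoclast gene, so osteoclast markers and acid secretion genes were set beside it. The summed signal of 10 osteoclast markers was lowest where Car2 was highest, at 788 to 954 in CD31- B220- cells, against 1250 to 1326 in HSC, 1544 to 1669 in CD31+ B220+ and 1008 to 1108 in CD31+ B220- cells. Gene by gene the list did not follow its sum: of the 6 tested osteoclast markers, 2 were higher and 1 lower in CD31- B220- cells against HSC (median log2 difference 1.05), and 4 were higher and 2 lower against CD31+ B220+ cells (1.04). Dcstamp, which passed the detection filter through the CD31+ B220+ arrays alone, is among those counted against CD31+ B220+ cells, so nothing is read from its call. Of all tested genes 49.2% passed in the first comparison and 44.8% in the second. By array, 4 to 5 of the 10 were detected in CD31- B220- cells, 3 in HSC, 2 to 3 in CD31+ B220+ and 2 to 4 in CD31+ B220- cells. Nfatc1, a transcription factor of osteoclasts, had a mean log2 signal of 9.96 in HSC and 8.40 in CD31- B220- cells, while Calcr and Ocstamp were detected on 0 arrays. Acp5 and Ctsk, enzymes of bone resorption, were each detected on 3 of 3 CD31- B220- arrays, at means of 6.68 ± 0.45 and 6.31 ± 0.73. Of 13 tested genes of acid secretion, 4 were higher and 1 lower in CD31- B220- cells relative to HSC (median log2 difference 0.41), where 49.2% of all tested genes passed. Among them Atp6v0a1, a subunit of the proton pump, was 2.16 higher (SE 0.24; limma adjusted p = 1.8e-05) and Clcn7, the chloride-proton exchanger that works with the pump, 1.63 higher (limma adjusted p = 6.15e-05). In CD31+ B220+ cells, where Car2 was lowest, 6 of the 13 were higher than in HSC and 3 lower, and in CD31+ B220- cells 5 were higher and 0 lower. Of all tested genes 44.2% and 41.3% passed in these comparisons. The directions of the acid secretion genes depended on the scaling against the brighter HSC arrays. With median scaling 1 of the 13 was higher and 6 lower in CD31- B220- cells, 0 higher and 9 lower in CD31+ B220+ and 0 higher and 8 lower in CD31+ B220- cells. Of 11391 genes tested with that scaling, 7025, 7666 and 7398 were lower in the same order of groups. In CD31- B220- cells relative to HSC, Clcn7 was then at 0.19 (limma adjusted p = 0.55) and Atp6v0a1 at 0.89 (0.0094).

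**Figure D4:**
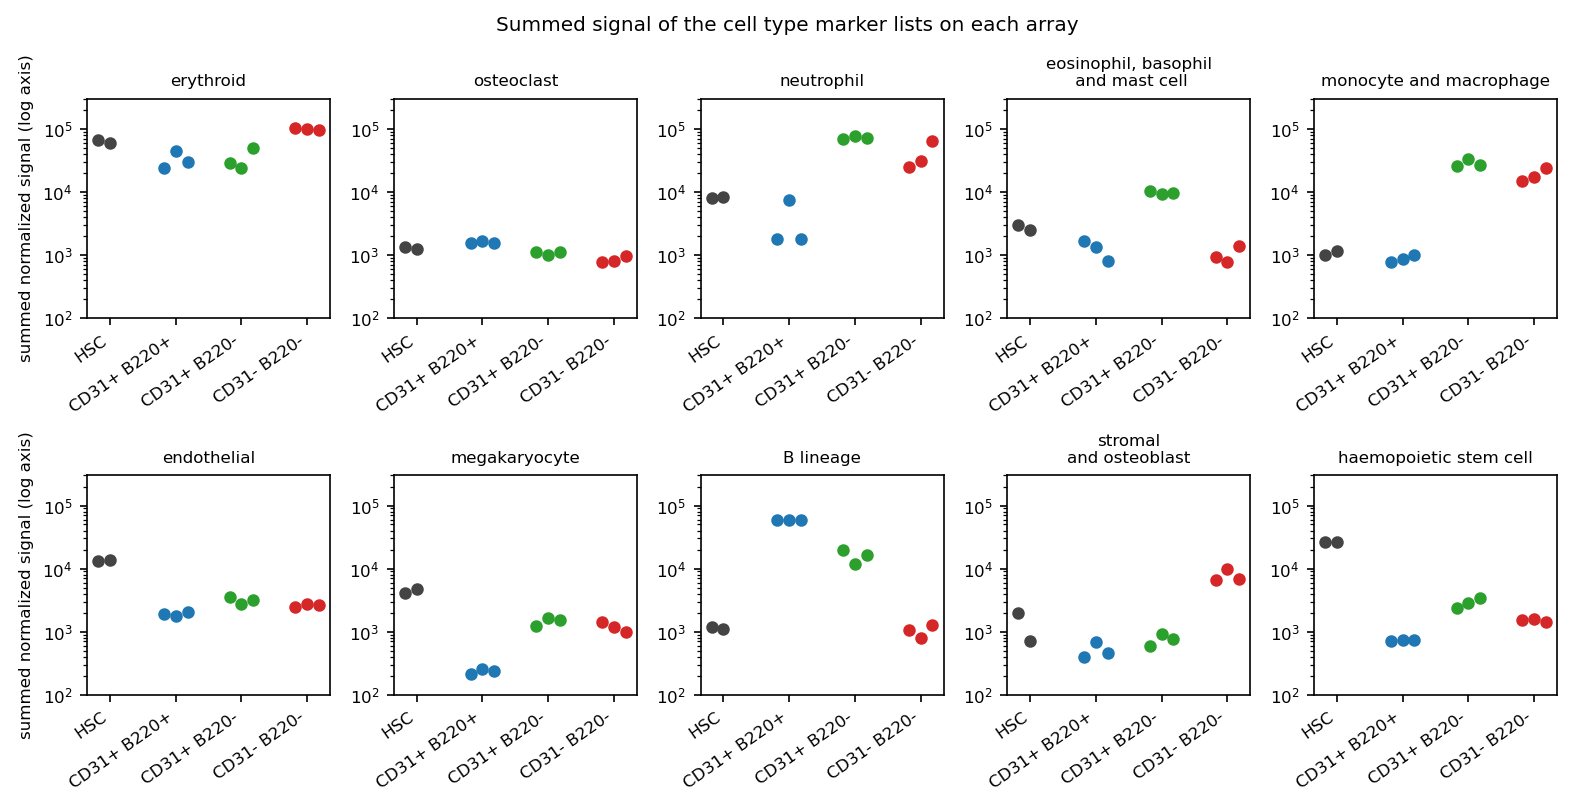
Summed normalized signal (y axis, log scale) of each cell type marker list on each array, by sorted group (x axis), with 1 point per array. The erythroid and stromal sums are highest on the CD31- B220- arrays, the B lineage sum on the CD31+ B220+ arrays, and the endothelial sum on the HSC arrays. Each sum is of linear signals and so follows the brightest genes of its list.

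The other carbonic anhydrases and aquaporins were mostly dim. Of 27 genes of both families with a named probe, members included, 13 were detected on at least 2 arrays, 4 on 1 array and 10 on none. Car9 and Car11 were highest in HSC. Car9, a transmembrane enzyme known for its induction by low oxygen, had a mean log2 signal of 7.69 ± 0.11 (n = 2) for HSC, 6.26 ± 0.73 (n = 3, 2 detected) for CD31+ B220- cells and was not detected in the other fractions. It was 2.69-fold lower in CD31+ B220- cells relative to HSC (limma adjusted p = 0.00526), at least 4.50-fold lower in CD31+ B220+ (3.34e-05) and at least 4.62-fold lower in CD31- B220- cells (3.12e-05). Car11, a carbonic anhydrase-related protein without the enzyme activity, was detected on the 2 HSC arrays alone, at 6.86 ± 0.19 (n = 2). Car11 passed the detection filter through the HSC arrays alone, so its difference from HSC is given as a description. It was at least 2.54-fold lower in CD31+ B220+, at least 2.76-fold lower in CD31+ B220- and at least 2.61-fold lower in CD31- B220- cells.

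Of the remaining tested carbonic anhydrases, Car15 was called once. It was 0.73 higher in CD31+ B220+ than in CD31+ B220- cells (limma adjusted p = 0.0495), and the call was lost when any of 9 of the 11 arrays was left out. Car5b, a mitochondrial enzyme, ranged from 4.60 to 5.98 in log2 signal with 3 arrays detected, and Car12, a transmembrane enzyme, from 4.69 to 5.75 with 4 detected; neither was called in any comparison. Aqp11, an aquaporin of inner membranes, was the only other aquaporin called. Its mean log2 signal was 6.79 ± 0.81 (n = 3) for CD31- B220- cells, 6.24 ± 0.06 (n = 2) for HSC, 5.38 ± 0.47 (n = 3) for CD31+ B220+ and 5.22 ± 0.32 (n = 3) for CD31+ B220- cells. Aqp11 was 1.56 higher in CD31- B220- than in CD31+ B220- cells (limma adjusted p = 0.00786) and 1.41 higher than in CD31+ B220+ cells (0.0083), and its difference from HSC was 0.54 (0.298). Aqp7, another glycerol channel and the direct neighbour of Aqp3, was detected on 2 CD31+ B220+ arrays, and Aqp8 on 2 arrays, with no call.

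**Figure D5:**
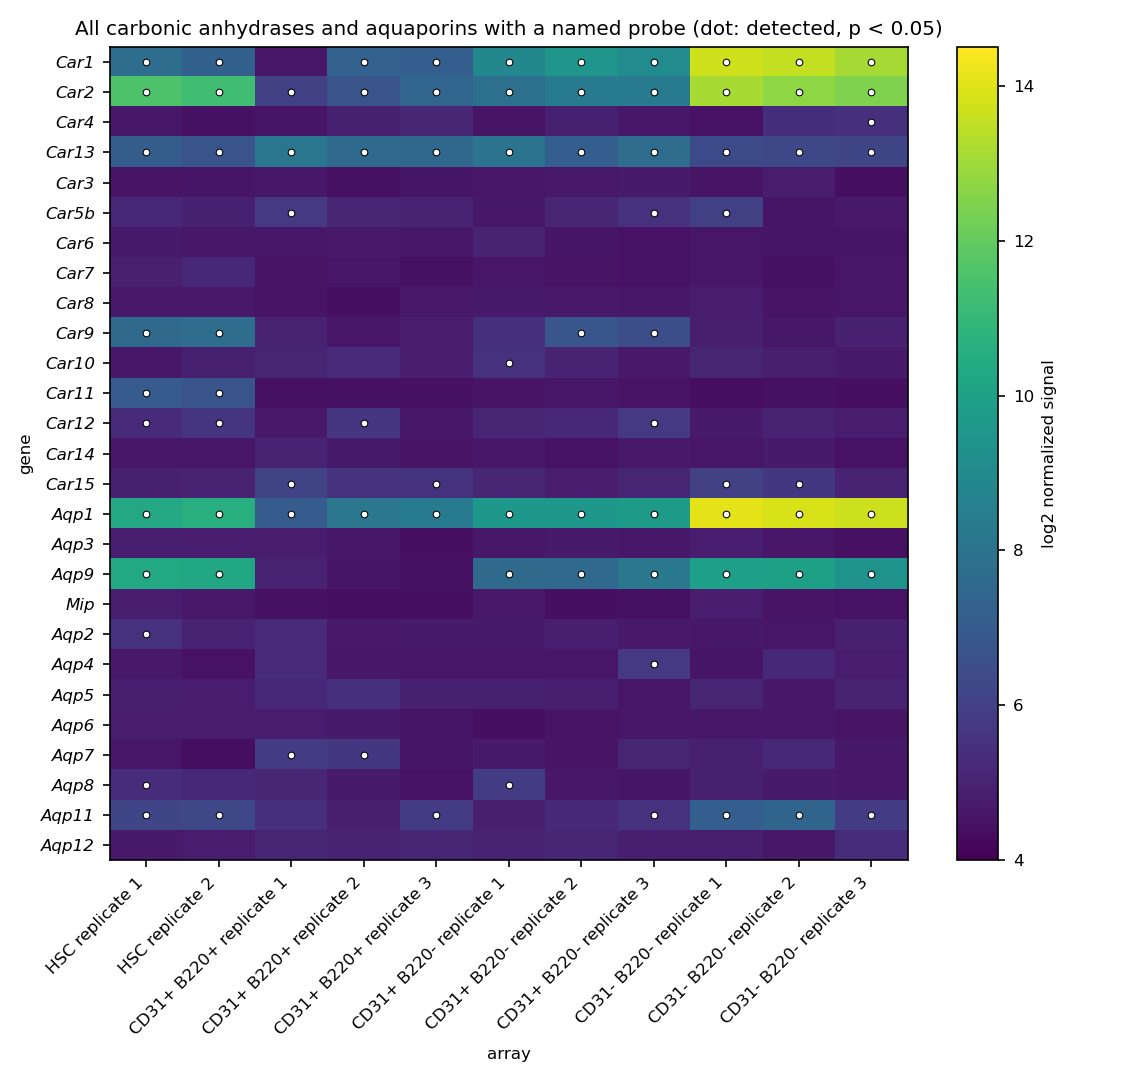
Log2 normalized signal (colour) of the 27 carbonic anhydrases and aquaporins with a named probe (rows) on the 11 arrays (columns), with a white dot where the probe was detected. Car1, Car2 and Aqp1 are the brightest rows on the CD31- B220- arrays, and Car9 and Car11 carry dots on both HSC arrays.

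Other red cell membrane genes were counted next, on a list of gas, urea and ion channels that also holds proteins of other kinds, such as Kel. Of 9 tested, 7 were higher and 2 lower in CD31- B220- cells relative to HSC. Their median log2 difference was 1.56 against -0.05 over all tested genes, of which 20.9% were higher and 28.3% lower. With median scaling 3 were higher and 2 lower, where 1089 of all 11391 genes were higher and 7025 lower. Kel, a blood group protein, was 55.3-fold higher (limma adjusted p = 2.14e-07) and Rhag, the Rh-associated gas channel, 34.7-fold higher (5.14e-07). Rhd was detected in CD31- B220- cells alone and passed the detection filter only through them. Its excess over HSC, at least 5.57-fold, is therefore a description, although Rhd is among the 7 counted as higher. Against CD31+ B220- cells 6 of the 9 were higher and 1 lower in CD31- B220- cells, and against CD31+ B220+ cells 7 and 2. Rhd is among those higher here too, and both counts were the same with median scaling. The shares of all tested genes were 12.1% higher and 16% lower against CD31+ B220-, and 22.5% and 22.4% against CD31+ B220+ cells. Relative to HSC, 0 of the 9 were higher and 1 lower in CD31+ B220+ cells and 0 higher and 3 lower in CD31+ B220- cells. Of all tested genes 25.6% and 23.7% were lower in these comparisons. Under median scaling 8 of the 9 were lower in each, as were 7666 and 7398 of all 11391 genes. Kcnn4, a potassium channel of red cells, fell in both, by 3.52 and by 1.18 on the log2 scale (limma adjusted p = 2.85e-06 and 0.00902), as Car2 and Aqp9 did.

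Genes listed as bicarbonate, chloride and proton carriers were counted in the same way. Of 11 tested, 1 was higher and 1 lower in CD31- B220- cells relative to HSC, 2 higher and 1 lower in CD31+ B220+ and 4 higher and 1 lower in CD31+ B220- cells, where 49.2%, 44.2% and 41.3% of all tested genes passed. Under median scaling 2 were higher in each, and 4, 4 and 5 lower. Of 11391 genes tested with that scaling, 7025, 7666 and 7398 were lower in the same order of groups. The gene higher in CD31- B220- cells was Slc4a1, the anion exchanger that carries the bicarbonate made by Car1 and Car2 in red cells. The gene lower there was Slc9a3r1 (log2 difference -0.89), which is on the list but is not itself a carrier. Slc4a1 had mean log2 signals of 14.60 ± 0.01 (n = 3) for CD31- B220-, 10.48 ± 0.02 (n = 2) for HSC, 9.48 ± 0.61 (n = 3) for CD31+ B220- and 9.28 ± 0.03 (n = 3) for CD31+ B220+ cells, the same order of group means as Car2 and Aqp1. Slc4a1 was 17.4-fold higher in CD31- B220- cells relative to HSC (limma adjusted p = 4.92e-07). Hvcn1, the proton channel of B cells and phagocytes, was highest in the CD31+ fractions, with 12.79 ± 0.28 (n = 3) for CD31+ B220+ cells, 10.38 ± 0.28 (n = 3) for CD31+ B220-, 7.97 ± 0.43 (n = 3) for CD31- B220- cells and 7.27 ± 0.02 (n = 2) for HSC. In CD31+ B220+ cells Hvcn1 was 45.9-fold higher than in HSC (limma adjusted p = 3.41e-08), whereas Car2, Aqp1 and Aqp9 fell in that comparison.

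Aqp9 and Aqp3 pass glycerol, and genes that make or use glycerol were set beside them. Of 11 tested, 3 were higher and 2 lower in CD31+ B220+ cells relative to HSC, 5 higher and 0 lower in CD31+ B220- and 4 higher and 3 lower in CD31- B220- cells, where 44.2%, 41.3% and 49.2% of all tested genes passed. Median scaling gave 2 higher and 7 lower, 3 and 4, and 4 and 4. Of 11391 genes tested with that scaling, 7666, 7398 and 7025 were lower in the same order of groups. Lpl, which frees fatty acids from triglyceride, had mean log2 signals of 6.56 in HSC, 5.93 in CD31+ B220+, 10.15 in CD31+ B220- and 10.60 in CD31- B220- cells, so it was low in HSC, where Aqp9 was highest. Mgll, which releases glycerol from monoglyceride, was 20.4-fold higher in CD31- B220- cells relative to HSC (limma adjusted p = 5.42e-07). Gpat3, which adds fatty acid to glycerol phosphate, was at least 10.9-fold higher in CD31+ B220+ cells, the fraction without detected Aqp9, than in HSC (limma adjusted p = 1.25e-06).

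Profiles were finally compared by the root mean square distance between log2 values over the 11 arrays, each profile centred on its own mean, as a description. Among the members Car2 and Aqp1 were closest, at 0.89, followed by Car1 and Aqp1 at 1.03, Car2 and Aqp9 at 1.13, Aqp1 and Aqp9 at 1.47, Car1 and Car2 at 1.81 and Car1 and Aqp9 at 2.31. Car13 lay 2.72 to 3.41 from each of the other 4. The 4 tested genes nearest to Aqp1 were Samd14 (0.291), Lmna (0.432), Icam4 (0.451) and Nipa1 (0.459), where the median distance of all genes was 2.37. Those nearest to Car1 were Sphk1 (0.807), Slc38a5 (0.837), Col5a1 (0.884) and Ank1 (0.920), against a median of 2.92. Car2 had Cd59a (0.358), Gstm5 (0.511), Septin8 (0.520) and Gfi1b (0.543) nearest, against 2.56. Nearest to Aqp9 were Dmwd (0.358), Naprt (0.410), Nfix (0.583) and Agap1 (0.599), against 2.24. Car13 had Map2k5 (0.230), Cdk19 (0.248), Nrm (0.290) and Patl1 (0.297), against 0.837. The points of each profile share arrays and groups, so a small distance says only that the groups had a like order and spacing.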

How the data were processed

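Expression was measured on 11 Illumina MouseWG-6 v2 arrays. The deposited non-normalized file held, per the file headers, a bead intensity per probe on a linear scale and a fraction headed as a detection p-value; that fraction rose with the intensity on each array (Spearman at least 0.987) and was read as 1 minus the p-value. The deposited processed values fitted a log2 scale with medians of 3.50 to 3.51, but the base of the logarithm, centring and method are not given in the sources used here. Lumi 1.1.0 is among the tools in the submitters' processing notes, with no role stated.

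The neqc function of limma 3.58.1 (R 4.3.3, version 1.17.8 of the R package data.table) corrected the intensities by normexp with background estimated from detection, added an offset of 16, quantile-normalized the arrays and then took log2. Of 45281 probes, 34885 carried 1 symbol and 10396 none or several; the latter were left out. The brightest probe of each symbol was kept, and a gene was tested if it was detected at p under 0.05 on at least 2 arrays. Group means were contrasted by limma's moderated test (2-sided), and a Benjamini-Hochberg adjusted p below 0.05 made a call. A fold against a group without any detection is printed as a lower bound. The number of arrays limits the precision. The fit was tested on simulated data.

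Members and gene lists were chosen with earlier results of these data known. The genes named are the members, the other tested carbonic anhydrases and aquaporins, the 3 largest called changes of each pathway list per comparison, the 3 brightest genes of each marker list, the genes of sorting markers and the 4 nearest profiles of each member; of these, those that bear on a member are printed. Markers named for being undetected, and Klf1, Acp5, Ctsk and Dcstamp, were picked after their values were seen. Each comparison was repeated with other background corrections, median scaling, the deposited values, an offset of 50, other filters and probe choices, the compared groups alone, the replicate number as a block, each array left out, and, added after seeing the data, quantile normalization on the log2 scale.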

Additional observations from a re-analysis of the deposited data

How the results depend on the processing

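The number of tested members called in CD31+ B220- minus HSC was the least stable: 2 in the analysis reported, 4 with normexp without detection p-values, 4 without background correction, 4 with median scaling, 5 with an offset of 50, 4 with the compared groups only and 4 with quantile normalization on the log2 scale, and it ran from 2 to 5 when single arrays were left out. In CD31+ B220+ minus HSC it ran from 3 to 4, and in CD31+ B220+ minus CD31+ B220- it was 4 whichever array was left out. The counts of members at least 2-fold higher in CD31- B220- cells, without any 1 array, were 3 over HSC, 4 over CD31+ B220- and 4 over CD31+ B220+ cells. Car1 in CD31+ B220- minus HSC had an adjusted p of 0.0355 with normexp, 0.00131 without background correction, 0.00824 with an offset of 50, 0.00193 with the compared groups only and 0.0175 with log2-scale quantile normalization, and Aqp1 had 0.04, 0.00475, 0.0246, 0.0101 and 0.0349. With arrays scaled to a common median, the all-gene median difference became -1.21, -1.12 and -1.06 in the comparisons of CD31+ B220+, CD31+ B220- and CD31- B220- cells with HSC. Calls there split into 780 higher and 7666 lower, 900 and 7398, and 1089 and 7025, in place of 2117 and 2912, 2007 and 2697, and 2375 and 3220; between the CD31+ fractions they split into 1195 and 2099 in place of 1909 and 2106. Median scaling reversed Car13 in CD31+ B220+ minus HSC (-0.78) and in CD31+ B220- minus HSC (-0.74), Slc4a2 in the first (-0.24), Ostm1 in the second (-0.39) and Aqp11 in CD31- B220- minus HSC (-0.81), and it brought Car1 in CD31+ B220+ minus HSC to -2.40 (adjusted p = 4.36e-05). Car5b, for which another probe became the brightest, turned to -1.98, -2.01 and -1.74 in the 3 comparisons with HSC under median scaling and to -0.70, -0.74 and -0.54 with an offset of 50. The cause of these reversals was not tested, and neither was the part of the all-gene shift or of the change of probe in them. Without background correction, described differences shrank, for Aqp9 in CD31- B220- minus CD31+ B220+ from 5.05 to 2.84. The arrays were not treated as paired by replicate number in the analysis reported. Deviations of same-numbered arrays from their group means correlated from -0.07 to 0.18 over 15 pairs, 1 of them over 0.1. With so few arrays per group, these correlations cannot decide whether same-numbered arrays share a source. With the replicate block, 4, 3 and 4 members were called in the 3 tested comparisons, the third call in CD31+ B220- minus HSC being Car13 (adjusted p = 0.0317), and in CD31- B220- cells 3, 4 and 4 members were at least 2-fold higher than in HSC, CD31+ B220- and CD31+ B220+ cells. A block for slide was not run because no header or label used here names one. Signal over background limits Car4, Aqp3 and the second probes of Car2 and Aqp9, which lie at or near the detection limit on most or all arrays.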
